A study of Mus musculus with 3 samples.

Results

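The response of OP9-DL1 stromal cells to pAsc at 24 h was set against the response of the T lineage cells grown on them, gene by gene. pAsc is phospho-ascorbate, a stable form of vitamin C, and was given at 800 µM on both sides. Each side is 1 Agilent mouse array of 2 colours, on which Cy3 marked the untreated and Cy5 the treated RNA. For each gene the dye-normalized log2(Cy5/Cy3) of the T cell array was subtracted from that of the stromal array, so a positive difference is a ratio that was higher in stromal cells. A gene was included where its brightest probe stood well above background in both colours on both arrays. The probe also needed a spot without an outlier flag on each array. Both held for 13741 genes (49.6%) of the 27729 on the array.

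OP9-DL1 is a mouse bone marrow stromal line of B6-C3Hf1 origin that carries the Notch ligand Delta-like 1, and it was kept in continuous culture in MEM with or without pAsc. The T cells came from bone marrow progenitors of C57BL/6 mice, held on OP9-DL1 with Flt3L and IL7 for 14 days, and pAsc was present over the last 24 h. Before lysis the stroma was left behind on the dish through a brief adherence step, so the T cell RNA came from cells that had been in contact with treated or untreated stroma. A further T cell array, with pAsc for 72 h in a culture of 17 days, gave the values at 72 h. There was 1 array for each comparison, 0 replicate arrays and 0 dye swaps, so no test was possible and a gene was called by size, at a difference of at least 2-fold (1 on the log2 scale).

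Ascorbate keeps iron in its reduced state in the 2-oxoglutarate dioxygenases. These enzymes include the collagen prolyl and lysyl hydroxylases, the hydroxylases that mark hypoxia-inducible factor for destruction, and the TET and JmjC enzymes that act on methylated DNA and histones. Type I interferon acts through a receptor, JAK kinases and a complex of STAT factors with IRF9, which binds the interferon-stimulated response element in promoters. The antiviral genes switched on in this way include oligoadenylate synthetases, IFIT proteins and GTPases. ATF4 is the factor that raises genes of amino acid supply when amino acids are short or protein folding fails.

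The labels call the stromal line an osteoblast, and its RNA held the defining markers of stroma and few of T cells. Of 20 stromal markers, 19 were well above background in untreated stromal RNA. Of 20 T lineage markers, 4 were above background there (Cd3e, Notch1, Coro1a and Gata3) and 20 in untreated T cell RNA. In untreated T cell RNA 19 of the stromal markers were also above background, with a median level 2.43 lower on the log2 scale than in stromal cells. One of them, Thy1, is also made by T cells. Spots on each array carried an outlier flag in 117 to 127 of 43379 cases and 0 were saturated, and the median Cy3 signal was 41.0 on the stromal and 62.4 on the T cell array over backgrounds of 22 and 21 units. The SD of the difference between repeat spots of 133 probes was 0.0832, and between probes of the same gene it was 0.207 over 4826 genes. Both are smaller than the 2-fold rule, but they cover spots and probes, not cultures. Because the colours ran the same way on both arrays, a dye effect of a gene that is common to both cancels in the difference.

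The difference was near 0 for most genes and had 2 long tails of unlike content. Of the 13741 genes, 52 (0.378%) were at least 2-fold higher in the stromal response and 189 (1.38%) at least 2-fold lower. The median was -0.03, the quartiles were -0.27 and 0.16, and the SD was 0.36. Of the genes called, 21.6% were in the higher direction. That share depended on the centring: it was 32.5% with the Agilent log ratio, 43.2% with each array centred on the median of its measured probes and 78.4% when centred on all probes, which moved the median of all genes to 0.21. Across genes, which are not independent, the ratios of the 2 arrays had a Pearson r of 0.07, and 52.0% of genes had the same sign on both.

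**Figure D1:**
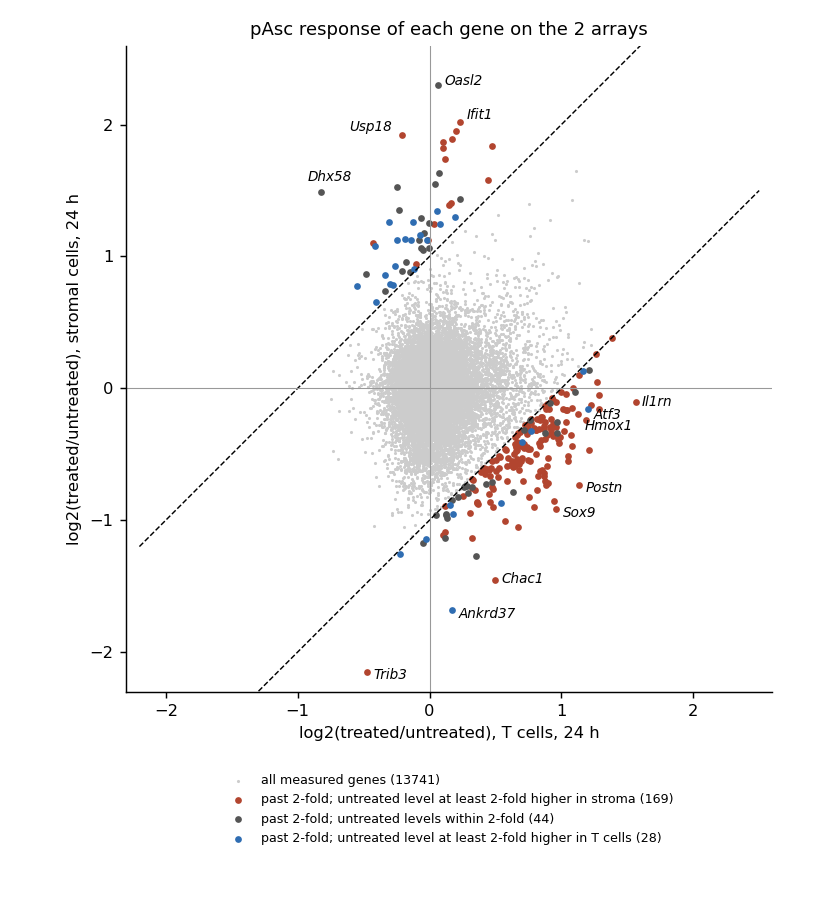
Each point is 1 of 13741 genes, with the log2 ratio of treated to untreated RNA at 24 h in T cells on the x axis and in stromal cells on the y axis; dashed lines mark a 2-fold difference, and coloured points are the 241 genes past it, by untreated level. The genes above the upper line have stromal ratios above 0, and most of those below the lower line have a stromal ratio below 0 and a T cell ratio above 0.

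The higher tail came from the stromal array. All 52 genes had a stromal ratio above 0, with a median of 1.21, and in 39 of them the stromal ratio alone was at least 2-fold, against 0.422% of all genes. Their T cell ratios had a median of -0.07, and in 34 of the 52 that ratio was below 0. The lower tail was of another make. In 178 of 189 genes the stromal ratio was below 0 and the T cell ratio above it, with medians of -0.51 and 0.72. The T cell ratio was at least 2-fold higher in 28 of them (0.364% of all genes) and the stromal ratio at least 2-fold lower in 13 (0.124% of all genes), and in 148 neither array passed 2-fold on its own. Of the genes measured on both arrays, 0 were 2-fold lower in T cells at 24 h (0.0%). Csf2, a cytokine gene with a T cell ratio of -1.55, was not among them because stromal cells were not above background for it. Since the rule used these ratios, the counts describe how the tails are made. The calls rest on the brightest probe of a gene. Of 85 genes called lower with several measured probes, 80 had all probes below 0 and 16 had all past 2-fold. Of 4 such genes called higher, 4 had all probes above 0 and 2 had all past 2-fold.

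The genes just inside the upper limit were Uba7 at 1.02, Apoe at 1.03 and Zc2hc1c at 1.04, and those just outside were Adora2a, Pde6h and Phf11d at 0.96 to 0.97. Ryk, Zfp948 and Lpl lay just past the lower limit at -1.0, and Mid2, Armcx3 and Il17d were short of it by less than 0.001.

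Interferon-stimulated genes led the higher tail. Dhx58, Oasl2, Usp18, Ifit1 and Irf7 had the largest differences, at 2.31, 2.24, 2.13, 1.79 and 1.78. Of the 111 genes in the 6 interferon lists, 85 were measured, of which 22 were called higher and 0 lower, and 73 had a difference above 0, as did 6340 of all 13741 genes. Their median difference was 0.60, against -0.03 for all genes, with median ratios of 0.64 in stromal cells and 0.00 in T cells. These 22 were thus 22 of the 52 genes called higher. They are list members only, and the rest of the 52 also held interferon-induced genes outside the lists, such as Oas1f.

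Oasl2, an oligoadenylate synthetase-like protein (its probe is at chr5:115362168-115362227 on mm9), had log2 levels of 8.46 in untreated and 10.76 in treated stromal cells, and of 8.96 and 9.02 in untreated and treated T cells. The treated stromal cells alone were high, a ratio of 4.93-fold in stroma and 1.04-fold in T cells. Usp18 removes ISG15 from proteins and limits signalling at the interferon receptor (chr6:121220513-121220572). It went from 8.93 to 10.85 in stromal cells and from 7.25 to 7.04 in T cells. Dhx58 encodes LGP2, a helicase that regulates RNA sensing (chr11:100556271-100556330). It went from 9.97 to 11.46 in stromal cells and from 10.16 to 9.34 in T cells, so its untreated levels were close and the treated levels moved apart. Ifit1, which binds viral RNA (chr19:34723796-34723855), went from 9.27 to 11.29 in stromal cells and from 6.66 to 6.89 in T cells. These levels are log2 intensities with a scaling set across arrays, and they are compared only for the same probe.

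Among the oligoadenylate synthetases, some of which make a small second messenger on sensing viral RNA, 3 of 5 measured members were called higher. These were Oas1a at 1.75 and Oasl1 at 1.26 beside Oasl2. A further gene of the Oas1 family that is not on the list, Oas1f, was at 1.76, with a stromal ratio of 1.87; it is named after its value was seen and counts among the genes outside the lists. Oas1a has near-identical neighbours, so its probe may also read them. Oasl1 was dim, with untreated levels of 7.02 in stromal cells and 6.39 in T cells, and its difference was 2.64 with the Agilent log ratio. Among the 22 measured IFIT, IFITM and related antiviral genes, 6 were called higher and 21 had a difference above 0, with a median of 0.71. Ifi27l2a stood at 1.72, Ifit3 at 1.62, Bst2 (tetherin, which holds budding virus at the cell surface) at 1.59, Rtp4 at 1.35 and Xaf1 at 1.24, while Ifit2 was at 0.34 and Ifitm2 at 0.10.

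The interferon-induced GTPases, some of which attack the vacuoles of intracellular pathogens, were called higher in 6 of 9 measured members. All 9 had a difference above 0. Igtp was at 1.38, Tgtp1 at 1.37, Ifi47 at 1.23, Irgm2 at 1.20, Gbp3 at 1.14 and Mx2 at 1.07. Untreated T cells held more of these transcripts than untreated stroma, by a median of 2.11 on the log2 scale. Tgtp1 (chr11:48800173-48800232) shows this best: it was at 8.6 and 9.72 in untreated and treated stromal cells, and at 12.79 and 12.54 in T cells. The 2.18-fold rise in stroma thus ended far below the T cell level, which moved little at 24 h and was lower by 0.87 at 72 h.

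Of 17 measured nucleic acid sensors and genes of the ISG15 system, 5 were called higher and 16 had a difference above 0. Beside Dhx58 and Usp18 these were Zbp1, a sensor of Z-form nucleic acid, at 1.56, Isg15 at 1.25 and Uba7, the enzyme that activates ISG15, at 1.02. Ifih1 (MDA5) was at 0.60, Ddx58 (RIG-I) at 0.56, Sting1 at 0.72 and Cgas at -0.16. The receptors and factors upstream were mixed, with 1 of 17 called higher, 8 above 0 and a median of -0.03. Irf7, the factor that amplifies interferon production, was at 1.78, Irf9 at 0.94, and Stat2 at 0.68, while Ifnar1 was at -0.08 and Ifngr1 at -0.51. Ifnb1 was not well above background in any channel, and Cxcl10 was left out because untreated stromal cells were not above background for it.

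**Figure D2:**
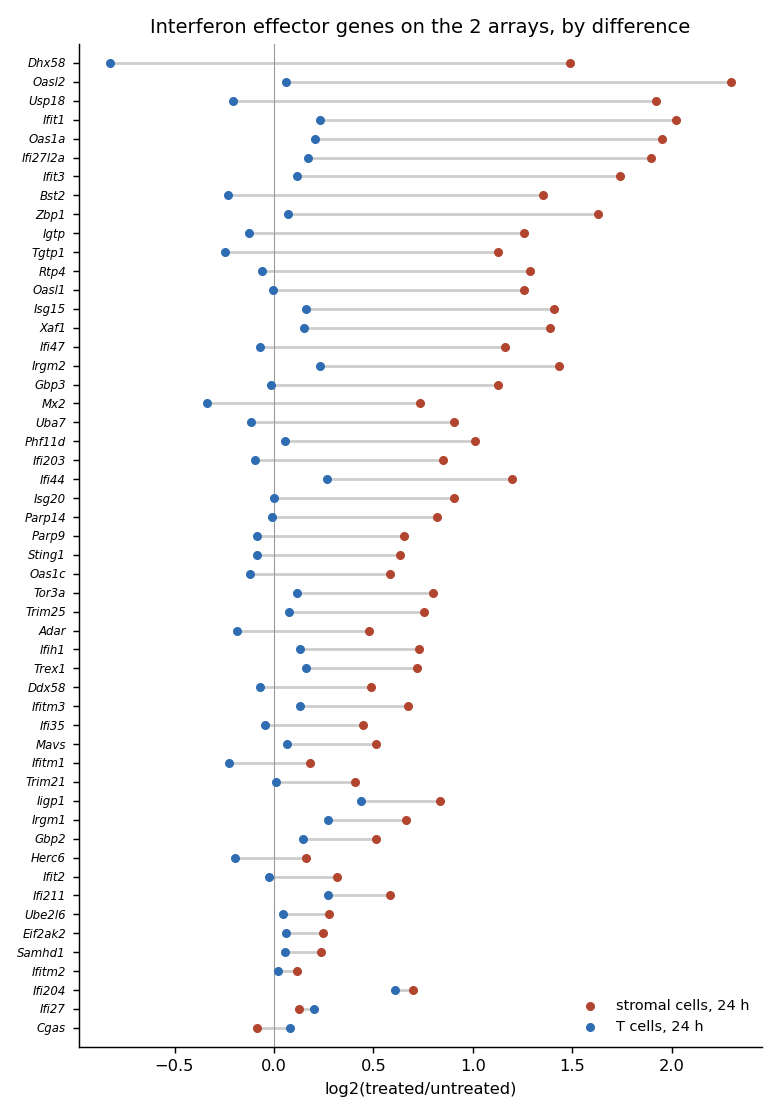
The rows are 52 of the 53 measured interferon effector genes (1 is not shown), with the log2 ratio of treated to untreated RNA at 24 h in stromal cells (red) and in T cells (blue), 1 array each, ordered by the difference. The stromal point lies to the right in 50 of the 53 measured. The T cell points sit around 0, with Dhx58 the lowest at -0.83, and some are of dim probes, whose ratios the offset draws towards 0.

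The antigen presentation genes of MHC class I, also targets of interferon, had a difference above 0 in 15 of 15 measured members, with a median of 0.45, though only H2-K1 passed 2-fold. H2-K1 was at 10.59 and 11.72 in untreated and treated stromal cells and at 15.82 and 15.63 in T cells, a difference of 1.32. H2-T23 was at 0.92, H2-D1 at 0.77, the immunoproteasome subunit Psmb9 at 0.75, the peptide transporter Tap1 at 0.65 and B2m at 0.19. Class I heavy chain genes are near copies of each other, so single members are uncertain. In 10 of the 15 the untreated T cells were at least 2-fold brighter, against 15.5% of all genes.

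The promoters of the interferon genes called higher are shown because members that move together can be compared for the same element. GAAANNGAAA, the core of the interferon-stimulated response element, was searched on both strands in RefSeq promoters of build GRCm38.p6, from 250 bases before to 50 after the start. It was in 3.44% of 32851 promoters, and in 354 of the 9571 measured genes with a promoter (3.7%). Of the 22 interferon genes called higher, 16 had a promoter in the table and 9 of these (56.2%) held it. The motif was in 18 of 53 (34%) of interferon genes under 2-fold, 1 of 20 called higher outside the lists and 5 of 129 called lower. The genes outside the lists were not free of interferon-induced genes. Oas1f, Slfn2, Sp110 and Rnf213 were among them, each without a match. A match describes the letters and is not a binding site. Upstream stretches of 6 of the 9 listed genes with a match are given 5′ to 3′ on the strand of the gene. Matches are in capitals (a match on the other strand begins with TTTC, and neighbouring matches can overlap).
Ifit1: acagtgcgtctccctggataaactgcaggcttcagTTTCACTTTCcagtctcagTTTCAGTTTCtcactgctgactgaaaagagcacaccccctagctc
Ifit3: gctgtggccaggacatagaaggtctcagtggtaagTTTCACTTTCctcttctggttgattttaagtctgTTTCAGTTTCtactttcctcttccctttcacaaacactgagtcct
Isg15: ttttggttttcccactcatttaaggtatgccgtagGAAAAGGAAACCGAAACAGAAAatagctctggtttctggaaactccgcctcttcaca
Bst2: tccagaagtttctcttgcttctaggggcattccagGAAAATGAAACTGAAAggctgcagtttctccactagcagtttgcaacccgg
Tgtp1: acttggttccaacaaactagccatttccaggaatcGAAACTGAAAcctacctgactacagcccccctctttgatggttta
Igtp: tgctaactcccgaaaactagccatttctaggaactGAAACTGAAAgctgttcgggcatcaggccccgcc
The stretches lie at chr19:34640750-34640848 (plus strand) for Ifit1, chr19:34583338-34583451 (plus) for Ifit3, chr4:156200840-156200931 (minus) for Isg15, chr8:71537552-71537637 (minus) for Bst2, chr11:48992279-48992358 (minus) for Tgtp1 and chr11:58199487-58199555 (plus) for Igtp. Ifit1, Ifit3 and Bst2 each held 2 matches, Isg15 held 3, and the GTPase genes Tgtp1 and Igtp held 1 each. Oasl2, Irf7, H2-K1, Ifi47, Oasl1, Xaf1 and Uba7 had a promoter in the table without these letters in that window.

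Of the other 30 genes called higher, 2 were in any list, Ccl5 and Mvd. Renbp, an enzyme of amino sugar metabolism, was at 1.57, Klhl30 at 1.53, Elmo3 at 1.51, Traf1, an adaptor of TNF receptors, at 1.5, As3mt, which methylates arsenic, at 1.37 and Sh3tc1 at 1.35. Traf1 went from 8.71 to 9.79 in stromal cells and from 10.15 to 9.73 in T cells. The chemokine Ccl5 was at 1.20, with a stromal ratio of 0.86 and a T cell ratio of -0.34. The second probe of As3mt gave 0.65.

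Genes of cholesterol and fatty acid synthesis mostly had differences above 0 but under 2-fold. Of 29 measured, 28 had a difference above 0, with a median of 0.49, and 1 was called higher. The median ratio was 0.40 in stromal cells and -0.04 in T cells. Mvd, which makes isopentenyl diphosphate in the mevalonate pathway, went from 11.05 to 12.01 in stromal cells and from 10.34 to 10.16 in T cells, a difference of 1.14. The sterol reductases Tm7sf2 and Dhcr7 were at 0.90 and 0.87, and Fdps, which makes farnesyl diphosphate, at 0.55. Idi1 at 0.02, Srebf1 at 0.03 and Hmgcs1 at 0.11 were near 0, and Elovl6 was at -0.21. Untreated levels were within 2-fold of each other for 22 of the 29, against 59.6% of all genes, and all 22 had a difference above 0.

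The stress genes of the ATF4 type lay on the other side. Of 22 measured, 3 were called lower, 0 higher and 3 had a difference above 0, with a median of -0.48 and median ratios of -0.28 in stromal cells and 0.04 in T cells. Chac1, which degrades glutathione, had the largest negative difference of all genes at -1.95 (chr2:119179990-119180049). It went from 11.17 to 9.71 in stromal cells and from 7.81 to 8.31 in T cells, so stroma fell 2.74-fold from a level far above that of T cells. Trib3, a pseudokinase that restrains ATF4, went from 11.10 to 8.95 in stromal cells and from 9.68 to 9.21 in T cells. It was lower on both arrays, by 4.44-fold in stroma and 1.39-fold in T cells, and its 2 probes gave differences of -1.68 and -0.79. Asns, the asparagine synthetase, was at -0.94, Atf5 at -0.82, the mitochondrial folate enzyme Aldh1l2 at -0.72 and Ddit3 (CHOP) at -0.47. The serine pathway genes Psat1, Phgdh and Shmt2 were at 0.01, 0.10 and 0.21, and Atf4 itself at -0.02.

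Atf3 reached the list by the other array. It was at 7.26 and 7.11 in untreated and treated stromal cells and at 9.73 and 10.93 in T cells, a T cell ratio of 2.30-fold at 24 h that was -0.03 on the log2 scale at 72 h. Promoter stretches are shown for Chac1 and Atf3, which differ in the array that moved. TGATGNAA, a core of the amino acid response element, was searched on both strands and was in 3.97% of promoters. By gene it was in 261 of 9571 measured genes with a promoter (2.73%) and in 5 of 20 genes of the list (25%). Of genes called lower, 9 of 129 held it (6.98%).
Chac1: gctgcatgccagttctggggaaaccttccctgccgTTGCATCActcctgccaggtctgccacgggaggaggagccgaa
Atf3: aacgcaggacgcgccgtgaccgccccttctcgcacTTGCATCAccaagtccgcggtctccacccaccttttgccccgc
These stretches end before the start, at chr2:119351014-119351091 (plus strand) for Chac1 and chr1:191183401-191183478 (minus) for Atf3 in GRCm38.p6, and both hold the match as TTGCATCA.

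Targets of hypoxia-inducible factor mostly had differences below 0, and few passed 2-fold. Of 32 measured, 4 were called lower, 0 higher and 7 had a difference above 0. Their median was -0.39, with median ratios of -0.11 in stromal cells and 0.21 in T cells. The T cell ratio was above 0 in 28 of 32, against 57.8% of all genes. Ankrd37, a small ankyrin repeat protein, had the largest difference of the list, -1.86 (chr8:47082404-47082463): it went from 9.23 to 7.55 in stromal cells and from 10.31 to 10.49 in T cells. Ndrg1 went from 11.29 to 10.04 in stromal cells and from 14.11 to 13.89 in T cells. P4ha2, a catalytic subunit of the collagen prolyl hydroxylase that needs ascorbate, went from 14.38 to 13.65 in stromal cells and from 13.69 to 14.11 in T cells, a difference of -1.16. Its paralog P4ha1 was at -0.90 and the lysyl hydroxylase Plod2 at -0.74.

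The glycolytic members differed in which array moved. Aldoa at -1.02, Pgk1 at -0.82 and the glucose transporter Slc2a1 at -0.87 had stromal ratios of -0.11, -0.07 and -0.27 and T cell ratios of 0.91, 0.76 and 0.61. Pdk1, a kinase that inhibits pyruvate dehydrogenase, was just short of the limit at -1.0, and Bnip3 and Vegfa were at -0.98 and -0.39. Pfkfb4 and Bhlhe40 were at 0.54 and 0.52. Untreated T cells were at least 2-fold brighter in 15 of the 32 and stroma in 1, against 15.5% and 24.9% of all genes. The core ACGTG, on either strand, was in 20 of 28 genes of the list with a promoter (71.4%), against 29% of measured genes.

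**Figure D3:**
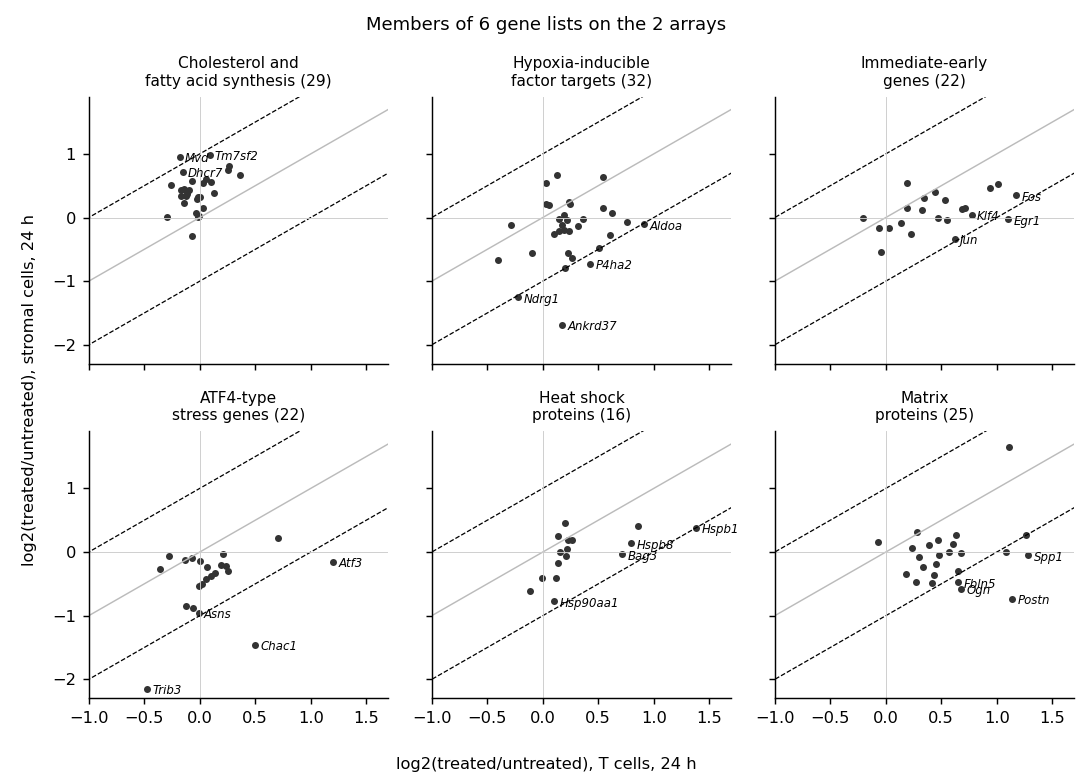
Each panel is a gene list, each point a measured member, with the log2 ratio of treated to untreated RNA at 24 h in T cells (x axis) and stromal cells (y axis); the solid line is equality, dashed lines are 2-fold differences, and up to 4 members of large difference are named. Cholesterol genes lie above the solid line in 28 of 29 cases, and the other 5 lists lie mostly below it.

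Immediate-early genes, which respond within minutes to growth factors and stress, mostly had differences below 0 but under 2-fold. Of 22 measured, 2 had a difference above 0, the median was -0.47, and 1 passed 2-fold. On the T cell array alone 3 of the 22 had a ratio of at least 2-fold. The median ratio was 0.08 in stromal cells and 0.45 in T cells. Egr1, a zinc finger factor, stood at 12.88 and 12.85 in untreated and treated stromal cells and at 13.53 and 14.63 in T cells. Jun was at -0.95, Fos at -0.82, Klf4 at -0.73 and Dusp1 at -0.47. In 11 of the 22 the untreated T cells were at least 2-fold brighter, against 15.5% of all genes.

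Among the heat shock proteins 2 of 16 had a difference above 0, with a median of -0.36. Hspb1, a small chaperone, was at 13.35 and 13.73 in stromal cells and at 9.13 and 10.52 in T cells, a difference of -1.0 past the limit. Hsp90aa1 was at -0.88 with a stromal ratio of -0.77, whereas Bag3 was at -0.75 with a stromal ratio of -0.03. Of 28 oxidative stress genes 1 was called, Hmox1 (heme oxygenase), at 13.22 and 13.03 in stromal cells and 10.31 and 11.44 in T cells. The median of that list was -0.07, and Nqo1, Gclm and Txnrd1 were at -0.02, -0.14 and -0.31. The cytokine genes Il1rn, the interleukin 1 receptor antagonist, at -1.67 and Gdf15 at -1.35 were likewise flat in stroma, with ratios of -0.10 and -0.13, and higher in T cell RNA, by 1.57 and 1.22. At 72 h these T cell ratios were 0.34 for Il1rn, -0.01 for Gdf15 and -0.10 for Hmox1. Untreated stroma was brighter than untreated T cells for Il1rn, Gdf15, Hmox1 and Hspb1, by 4.72, 2.10, 2.91 and 4.22 on the log2 scale. The part of stromal RNA in their T cell ratios was not tested.

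Of the 189 genes called lower, 31 were in any of the 40 lists. In the lists of collagen chains and other matrix proteins, 7 of 45 measured members were called lower and 0 higher, with a median of -0.54. Postn (periostin, a matrix protein of connective tissue; chr3:54194483-54194542) went from 13.37 to 12.63 in stromal cells and from 9.11 to 10.25 in T cells. Col8a1 was at -1.52, Spp1 (osteopontin) at -1.33, Ogn at -1.26, Fbln5 at -1.13, Vcan at -1.09 and Fbn1 (fibrillin) at -1.0. Of 17 matrix proteinases and their inhibitors 0 had a difference above 0, with Adamts1 at -1.36. Lox, which crosslinks collagen, was at -1.08. Col1a1 and Col1a2, the chains of type I collagen, were at -0.42 and -0.09, since both arrays moved up, with stromal ratios of 0.46 and 1.12 and T cell ratios of 0.88 and 1.20.

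The ratios of these lists are set beside the untreated levels of their genes in stroma and T cells. For the 45 collagen and matrix genes the median ratio was 0.00 in stromal cells and 0.57 in T cells. Untreated stroma was at least 2-fold brighter in 39 of them, against 24.9% of all genes. The 18 stromal markers measured on both arrays had T cell ratios above 0 in 18 of 18, with a median of 0.69, while 9 were above 0 in stromal cells. Of the 536 genes at least 8-fold brighter in untreated stroma, 97.2% had a T cell ratio above 0, with a median of 0.51, against 52.1% and 0.01 among genes of like level. In that group 13.8% were called lower, against 0.305%. The part of stromal cells in the T cell RNA in these values was not tested, and in bulk RNA more cells of a type and more RNA per cell cannot be told apart. With genes at least 2-fold brighter in stroma left out, 37 genes were called higher and 35 lower. The medians of the interferon and ATF4 lists then kept their signs. Those of the collagen-modifying and skeletal lists turned from -0.31 and -0.32 to 0.043 and 0.31, over only 7 and 3 genes left. The direction of the collagen, collagen-modifying, contractile and skeletal lists was reversed when arrays were centred on all probes, to medians of 0.06, 0.23, 0.23 and 0.18. Relative to the median of all genes under that centring, 0.21, these medians were -0.15, 0.019, 0.020 and -0.034. With centring on measured probes the collagen-modifying, contractile and skeletal medians were also reversed, to 0.10, 0.10 and 0.047, and the collagen median was -0.072. Other lists were reversed under both centrings, on all and on measured probes. Among them were ribosomal proteins, at 0.33 and 0.20, and oxidative stress genes, at 0.35 and 0.22.

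**Figure D4:**
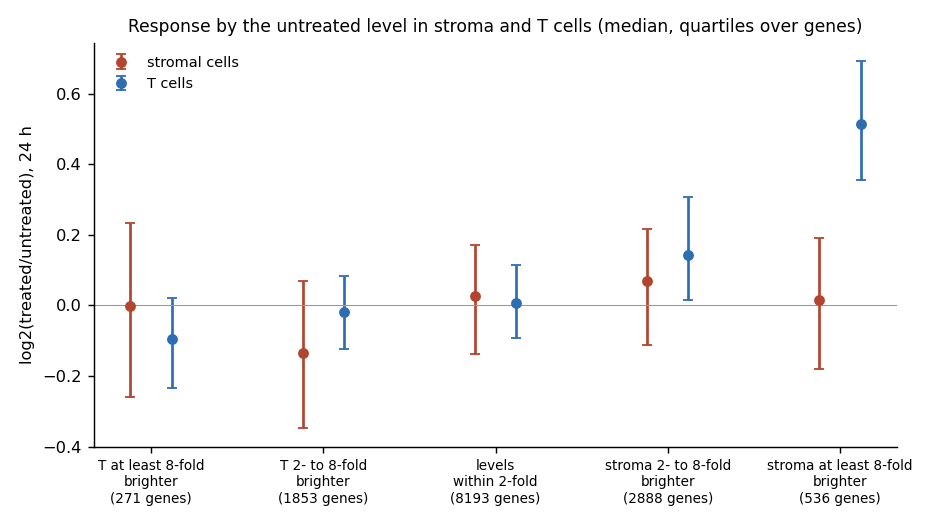
Genes are grouped on the x axis by the ratio of their untreated levels in stroma and T cells, and the y axis gives the log2 ratio of treated to untreated RNA at 24 h on each array; points are medians over genes and bars the quartiles. The T cell median climbs from -0.09 where T cells are 8-fold brighter to 0.51 where stroma is, and the stromal medians stay between -0.14 and 0.07.

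Transcription factors and signals of mesenchymal cells were also among the lowest. Sox9, a factor of cartilage and progenitor cells (chr11:112647008-112647067), went from 10.97 to 10.06 in stromal cells and from 9.78 to 10.73 in T cells, and 2 probes gave -1.87 and -1.43. Prrx1, a homeobox factor of limb and stromal cells, was at -1.53 and its 4 probes ran to -1.02. Gas1 was at -1.68, Rspo2, which amplifies Wnt signals, at -1.56, and the fat cell genes Fabp4 and Lpl at -1.25 and -1.0. Kitl, the stem cell factor that stroma offers to progenitors, went from 10.56 to 9.77 in stromal cells and from 9.70 to 10.33 in T cells, a difference of -1.42. Cxcl12 was at -0.38, with a second probe at -1.18. Il7 and Dll1 were not included because untreated T cells were not above background for them.

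In 10 of the 189 genes called lower (5.29%) the untreated T cells were at least 2-fold brighter, a smaller share than the 15.5% of all genes. Among the 10 were Ankrd37, Ndrg1, Atf3, Cd34 and Psmc6. Cd34, a surface protein of progenitors, was at -1.10, with T cell ratios of 0.77 at 24 h and -1.79 at 72 h. Psmc6, a proteasome ATPase, was at -1.04, and no other of 27 proteasome subunits passed 2-fold.

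Most T lineage genes could not be compared, because stromal cells lack them. Of 32 genes of the T cell receptor, coreceptors and signalling, 5 were measured on both arrays, and none passed 2-fold, with Cd3e at -0.11, Cd5 at 0.22 and Fyn at -0.17. Among T lineage factors Gata3 was at 0.69 and Notch1 at -0.02. Of the dioxygenases, Tet1 was at 0.02, Tet3 at -0.33 and Kdm3a at -0.46, and 0 of 22 genes of TET, JmjC and DNA methyltransferase enzymes passed 2-fold. The ascorbate transporter Slc23a2 was at -0.04. Cytosolic ribosomal protein genes, among the brightest probes, were above 0 on both arrays, with medians of 0.46 and 0.59, and had a median difference of -0.10. Over the genes with a mean log2 brightness of at least 14 on both arrays the median difference was -0.07.

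**Figure D5:**
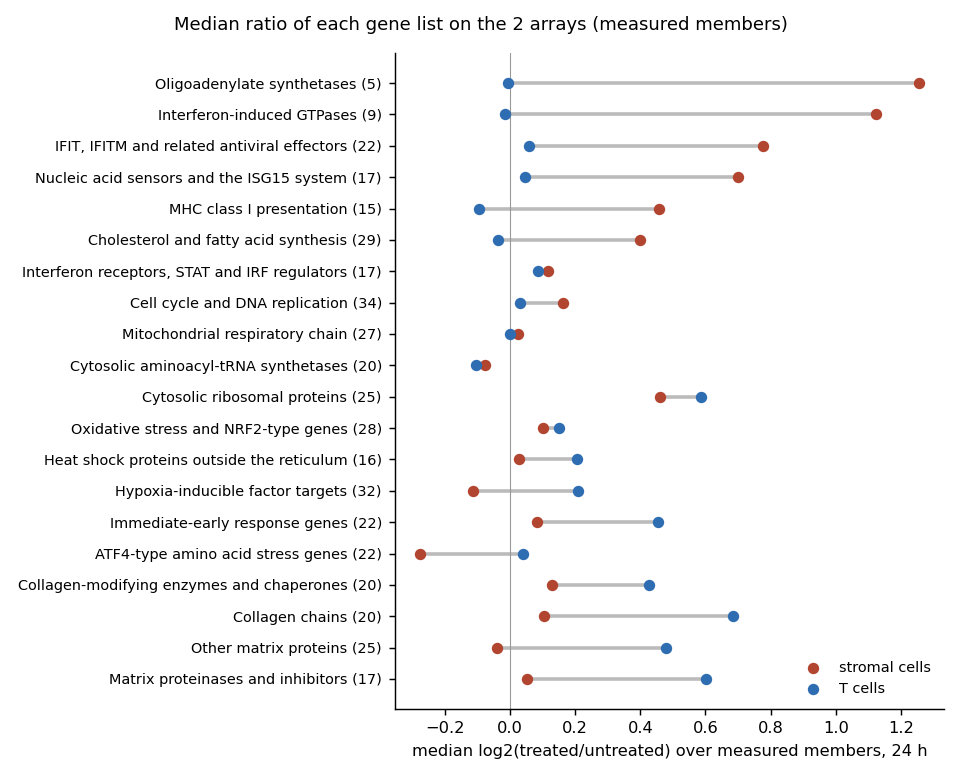
For 20 gene lists, with the number of measured members in brackets, the median log2 ratio of treated to untreated RNA at 24 h is shown in stromal cells (red) and T cells (blue), 1 array each. The interferon effector, MHC class I and cholesterol lists have the stromal point to the right, and the collagen and matrix lists have the T cell point to the right.

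Some genes moved alike in both kinds of cell. At 1.5-fold on each array 51 genes were higher on both, 0 were lower on both, 24 were lower in stroma and higher in T cells, and 1 was the reverse. At 2-fold on each array 4 genes were higher on both and 0 lower: Slpi, an inhibitor of leukocyte proteases, Col1a2, Col14a1 and Mgp, an inhibitor of calcification. With the Agilent log ratio Col1a2 passed 2-fold on neither array, at 0.69 in stroma and 0.93 in T cells. Slpi went from 11.29 to 12.42 in stromal cells and from 10.60 to 11.77 in T cells. Mgp went from 14.92 to 16.57 and from 12.12 to 13.23, so its levels ended higher in all treated RNA. Untreated stroma was brighter than untreated T cells for Slpi, Col1a2, Col14a1 and Mgp, by 0.69, 1.09, 0.79 and 2.80 on the log2 scale. The part of stromal RNA in their T cell ratios was not tested. Among the genes most reduced on both arrays were Ahr, the aryl hydrocarbon receptor, with ratios of -0.48 and -0.49, and Vamp2 with -0.49 and -0.43. Maf was at -1.05 in stroma and -0.42 in T cells.

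With the T cell array of 72 h in place of that of 24 h, and the stromal array shared, 36 of the 52 genes called higher were still at least 2-fold higher, and 28 of the 189 called lower were still at least 2-fold lower. Over all 13595 genes measured at 72 h as well, 88 passed 2-fold upwards and 64 downwards on that footing. Median T cell ratios of the lower genes were 0.72 at 24 h and 0.17 at 72 h, and of the higher genes -0.07 and -0.04. Ifit1 was at 0.23 and 0.98 in T cells, Ifi27l2a at 0.17 and 1.11 and Dhx58 at -0.83 and -0.92, so the interferon genes did not share a direction at 72 h. Postn was at 1.14 and 0.71, Sox9 at 0.96 and -0.68, and Col8a1 at 1.08 and 0.56.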

How the data were processed

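Spot intensity values (mean signals and local background medians per channel, not normalized) and a log10 ratio of Cy5 over Cy3, background-subtracted and LOWESS dye-normalized, were deposited by the authors. They come from Feature Extraction 10.5.1.1 (Agilent), per the file headers. The flag for a spot well above background is also deposited. Log2 values were computed here from the deposited mean and background signals with limma 3.58.1 in R 4.3.3: normexp with an offset of 50, then loess with a span of 0.3, control spots and outlier flags at weight 0. Lists and counts used Python 3.11.15.

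A gene took the values of its brightest probe (mean over 3 arrays). It counted as measured where a share of at least 0.5 of its spots was well above background in both channels of both arrays. Spots with an outlier flag gave no ratio, so a gene with all its spots flagged on either array was left out. Untreated levels were set across arrays after Aquantile scaling, which is open to dye bias. RefSeq names (GRCm38.p6, used for names and promoters only) were matched by accession for 25089 probes, by symbol for 6339 and by synonym for 1639, and 8107 kept the name in the file. Probe positions are on mm9, per the file headers.

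Named are the 20 highest and 20 lowest genes, list members past 2-fold, the 6 genes with the largest moves of each kind on both arrays, and genes fixed by name, with other list members given as examples chosen after their values were seen. Clone names and near-identical families outside the lists are counted, not named, and a few genes are not reported here. Members and the 40 lists were chosen with earlier results of these data known. Alternatives were the Agilent log ratio, other background corrections and centrings, equal spread, the median over probes and other filters on dim probes. The steps were tested on simulated data.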

Additional observations from a re-analysis of the deposited data

Results flagged for a closer look

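At least 1.5-fold on each array, 24 genes were lower in treated stromal cells and higher in treated T cell RNA, Sox9, Gpm6b, Sparcl1, Lrrc17, Dclk1 and Postn foremost. At the same size 51 genes were higher on both arrays, where a dye effect common to both does not cancel. The opposite of the 24 was seen in 1 gene, Dhx58, with ratios of 1.49 in stromal cells and -0.83 in T cells. They are given because the direction differed between the arrays. The difference was not tested, with 1 array a side.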

How the results depend on the processing

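Against 52 genes called higher and 189 lower, the counts were 186 and 387 with the Agilent log ratio, 110 and 297 with a normexp offset of 0, 178 and 389 with plain background subtraction, 163 and 45 with centring on all probes and 80 and 105 with centring on measured probes. With ratios scaled to the same spread they were 35 and 226, and with the median over probes 52 and 143. Filters on dim probes gave 52 to 58 and 189 to 194. Of 2 alternatives chosen after seeing the data, leaving out genes brighter in stroma gave 37 and 35, and a running median over brightness 51 and 164. All 241 called genes kept their direction under each setting that measured them, but 82 stayed called with centring on all probes. The interferon median of 0.60 became 0.83 with that centring. The ATF4 median of -0.48 became -0.092 with it and -0.23 with centring on measured probes. The median of the collagen and matrix lists, -0.54, was reversed to 0.028 with centring on all probes, and was -0.11 with centring on measured probes and -0.10 over the 6 genes not brighter in stroma. The cause was not tested. No paired analysis was possible because each group is 1 array. A gene dim in a kind of cell was not compared, so differences there are not detectable here, and intervals over replicate cultures cannot be given.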
